A study of Mus musculus with 48 samples.

Results

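The ear pinna holds a structure that other hair-bearing skin lacks, a plate of elastic cartilage with the thin muscles attached to it, called here the cartilage/muscle complex. RNA-seq of this complex was set against RNA-seq of telogen ear skin, telogen being the resting phase of the hair cycle. The comparison used 5 of the 48 libraries of the series, 3 of the ear cartilage/muscle complex and 2 of ear rostral skin in telogen, all from C57BL/6 mice. Neither group carries a labelled allele, transgene or treatment, the labels give neither age nor sex, and the study described its skin sample as first telogen. Another 2 libraries of the same table, labelled dorsal competent telogen skin, entered the fit as a separate group and give a reference level here. The study asked how activating and inhibiting signals around ear hair follicles relate to their long rest, and the comparison shows which tissue of the ear held the transcripts of those signals. Of 46983 genes listed, 42280 lay on autosomes, and 18551 of these reached 0.5 FPKM in at least 2 of the table's libraries and were tested. FPKM counts the fragments of a gene per kilobase of its transcript and per fixed number of mapped fragments, so it is a level per length.

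Chondrocytes of elastic cartilage embed themselves in type II collagen and the proteoglycan aggrecan, and add a network of elastin fibres. Skeletal muscle fibres contract by sliding actin and myosin filaments, and draw on creatine kinase, myoglobin and mitochondria for their energy. In the hair cycle WNT ligands are known as activators of follicle growth, and BMP ligands and WNT antagonists as inhibitors. These are secreted proteins, made by the follicle itself and by the dermis, fat and other tissues around it.

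The libraries of each group resembled each other, with a Pearson r across genes of 0.967 to 0.978 among the complex and 0.98 between the ear skin libraries, against 0.747 to 0.752 between the tissues. Depth estimated from the steps in the values ran from 7020000 to 12090000 fragments in the complex and from 16320000 to 29815000 in ear skin. Mitochondrial genes took 13.01%, 4.62% and 13.98% of the FPKM total in complex libraries 1, 2 and 3, and 3.56% and 4.66% in ear skin, so complex library 2 stood apart from the other complex libraries. The 10 highest genes took 22.9% to 29.3% of the total in the complex and 8.64% to 9.06% in ear skin. The groups also differed in sex as far as transcripts show it. Xist, the RNA that silences an X chromosome in females, stood at 16.7, 14.4 and 16.7 FPKM in the complex and 0.01 and 0.02 FPKM in ear skin, while the Y-linked helicase Ddx3y stood at 0.03, 0 and 0 and at 30.4 and 32.2 FPKM. Tissue and sex therefore cannot be told apart, and only autosomal genes are described below. The libraries labelled dorsal competent telogen held 8292 and 8240.2 FPKM of Krt71 and 6052 and 5973 FPKM of Krt27, keratins of the inner root sheath that growing follicles make, where ear skin held 59.9 and 57.7 FPKM of Krt71 and 40.3 and 37.0 FPKM of Krt27. All 43 whole-skin libraries of the series were high in both, at 1743 to 12041 FPKM for Krt71 and 1411 to 7403 FPKM for Krt27, those labelled telogen included. The dorsal libraries are therefore given as side-by-side values and named by their label. They also counted towards the minimum level needed for the test and towards the spread estimated by the fit.

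The defining markers set the tissues apart. In the complex the cartilage markers Col2a1, Acan, Col9a1, Hapln1, Matn1 and Sox9 were all higher than in ear skin, and so were the muscle markers Acta1, Ckm, Mylpf, Tnnt3, Myh4 and Ttn. In ear skin the epidermal markers Krt5, Krt14, Krt1, Krt10 and Trp63 were all higher. Epidermal RNA was scarce in the complex, with the 30 epidermal genes listed for this comparison summing to 94.8 to 104.5 FPKM against 20874 and 22682 FPKM in ear skin. Cartilage RNA was scarce in ear skin, where the 28 cartilage matrix genes summed to 94.99 and 105.2 FPKM against 53835 to 55378 FPKM in the complex. Muscle RNA was lower in ear skin but not scarce, with the 35 contractile genes summing to 2074 and 2082 FPKM in ear skin against 35036 to 39944 FPKM in the complex. In whole tissue, fewer cells of a type and less RNA per cell cannot be told apart, and this holds for every gene below.

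**Figure D1:**
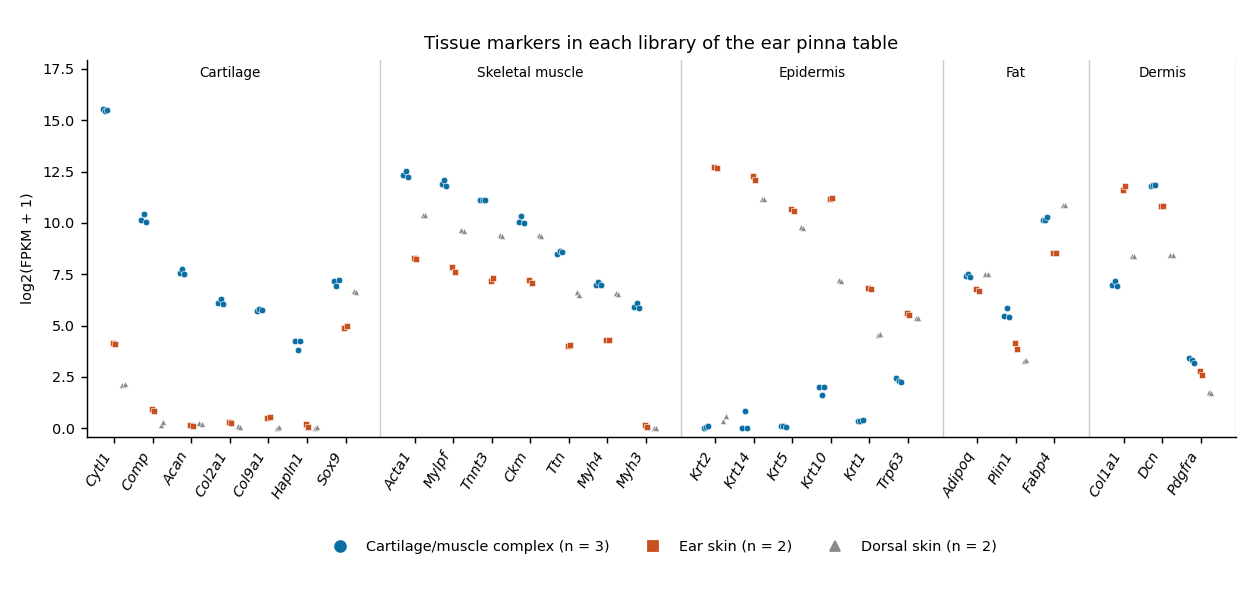
Levels of tissue markers on a log2(FPKM + 1) axis, 1 point per library, for the cartilage/muscle complex (3 libraries, circles), ear skin (2 libraries, squares) and the libraries labelled dorsal competent telogen (2 libraries, triangles). Cartilage genes other than Cytl1 and Sox9 lay near 0 in ear skin, muscle genes other than Myh3 were present in every group, and Krt2, Krt14, Krt5 and Krt1 lay near 0 in the complex.

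Across the autosomes 12358 of 18551 genes (66.6%) differed between the complex and ear skin at an adjusted p under 0.05 by limma on log2(FPKM + 1). Of these, 5171 were higher in the complex (27.9% of genes tested) and 7187 higher in ear skin (38.7%), so that 41.8% of the calls were higher in the complex (95% Wilson interval 41.0% to 42.7%, counting error only). The split depended on the scaling, since it was 31.3% after rescaling to TPM, which gives every library the same total, and 54.1% after quantile normalization. With at least a 2-fold difference on the same scale 5571 genes remained (30.0%), 2141 of them higher in the complex (11.5%) and 3430 higher in ear skin (18.5%). The shares of 27.9% and 38.7% are the reference for every count of list members below. The median difference over all genes tested was -0.11 on the log2 scale, with the 10th percentile at -1.7 and the 90th at 1.19. No overlap between the libraries of the groups was seen for 14187 genes (76.5%). Nothing in the labels says that the libraries come from separate animals. The p-values therefore measure the spread within the 3 groups of the fit, dorsal libraries included, which may be technical. A single gene cannot pass an exact permutation test here, because 3 libraries against 2 cannot give a p below 0.1.

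**Figure D2:**
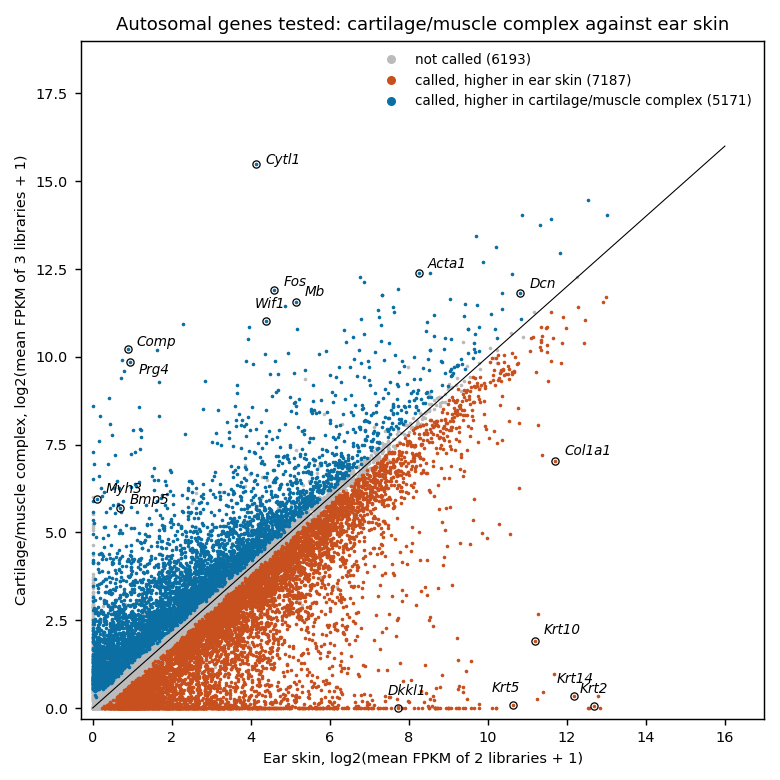
Mean level of each of the 18551 autosomal genes tested in the complex (vertical axis, 3 libraries) against ear skin (horizontal axis, 2 libraries), both as log2(mean FPKM + 1), with called genes coloured by direction and the line marking equal levels. Cytl1 is the highest gene of the complex and lies far above the line, and the keratins Krt2, Krt14, Krt5 and Krt10 lie along the bottom right.

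The largest differences in favour of the complex were led by cartilage. Cytl1, a small cytokine-like protein that chondrocytes secrete, stood at 47488, 45029.8 and 46479 FPKM in the complex and 16.8 and 16.5 FPKM in ear skin, a log2 difference of 11.36 ± 0.0475 with an adjusted p of 2.40e-09. Here and below a difference is the complex minus ear skin on the log2(FPKM + 1) scale, which understates changes of genes with low values. The ± gives the standard error of that difference from limma for 3 against 2 libraries. Its spread was estimated over all groups of the fit, the dorsal libraries included. Cytl1 was the highest autosomal gene of the complex, and the highest of 43 whole-skin libraries of the series reached 13.5 FPKM. Comp, a glycoprotein that ties collagen fibrils together, stood at 1117, 1392 and 1056 against 0.91 and 0.79 FPKM in ear skin. Prg4, the joint lubricant lubricin, stood at 963, 927 and 904 against 1.11 and 0.73 FPKM in ear skin. Both lay far above every ear skin library, by 9.32 and 8.93 on the log2 scale. Among the 15 largest were also the cartilage proteins Chad, Mia, Acan, Ucma and Lect1, the WNT receptor Fzd9 and the immediate early gene Fos, all taken up below. The remaining 5 are not cartilage matrix genes in the list used here. Wfdc2, a secreted protease inhibitor, stood at 729.6, 859 and 721 against 1.19 and 0.28 FPKM in ear skin. Msmp, a small secreted protein, stood at 633, 720.2 and 652 against 0.67 and 0.63 FPKM in ear skin. Ppp1r1b, a phosphatase inhibitor best known from dopamine signalling, stood at 439, 485 and 432 against 0.44 and 0.24 FPKM in ear skin. These genes were close to absent from ear skin. Myoc, the extracellular protein myocilin, was present at 15.1 and 13.9 FPKM in ear skin and at 1805, 1918 and 1760.4 FPKM in the complex. Cxcl1, a chemokine that attracts neutrophils, stood at 247, 226 and 262 FPKM in the complex and 1.44 and 1.12 FPKM in ear skin.

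Cartilage matrix genes were higher in the complex in 24 of 28 cases, beside 27.9% of all genes tested, and lower in 2, with a median log2 difference of 5.05 against -0.11 over all genes tested. The collagen and proteoglycan core of cartilage was present throughout. Col2a1, the main fibrillar collagen, stood at 68.5, 77.1 and 66.3 FPKM in the complex and 0.22 and 0.21 FPKM in ear skin, a difference of 5.88 ± 0.0874. Acan, the large aggregating proteoglycan, stood at 186, 215 and 181 against 0.13 and 0.1 FPKM in ear skin, a difference of 7.45 ± 0.093. The libraries of the groups did not overlap for either gene. Hapln1, the link protein that ties aggrecan to hyaluronan, stood at 17.8, 13.2 and 18.2 against 0.15 and 0.05 FPKM in ear skin. The minor collagen Col9a1 stood at 51.5, 56.0 and 53.4 against 0.43 and 0.45 FPKM in ear skin. The small non-collagenous proteins were at far higher levels per length than these. Chad, a leucine-rich repeat protein that binds integrins and collagen, stood at 1876, 2145 and 1877 against 3.47 and 4.26 FPKM in ear skin. The transmembrane proteoglycan Snorc, listed in the table under its older name 3110079O15Rik, stood at 1115, 1264 and 1108 against 2.52 and 1.67 FPKM in ear skin. Mia, which chondrocytes and melanoma cells secrete, stood at 604, 675 and 601 against 1.94 and 2.41 FPKM in ear skin. Fmod, a proteoglycan of cartilage and tendon, stood at 718, 789 and 695 against 26.3 and 23.1 FPKM in ear skin. All of them were more than 2-fold higher in every complex library than in any ear skin library. Lect1, known as chondromodulin and as an inhibitor of vessel growth into cartilage, stood at 234, 258 and 225 against 0.9 and 1.13 FPKM in ear skin. Ucma, of upper zone chondrocytes, stood at 208, 225 and 215 against 0.26 and 0.57 FPKM in ear skin. Matn1, a matrilin of hyaline cartilage, was low by comparison at 1.5, 2.01 and 1.42 FPKM and was listed at 0 in ear skin. The pair that was lower in the complex was Cilp at 15.5, 17 and 14.6 against 28.0 and 24.7 FPKM in ear skin and the sulfotransferase Chst3 at 1.01, 0.71 and 0.87 against 1.41 and 1.40 FPKM in ear skin. Epyc (0.25, adjusted p = 0.0573) and Scrg1 (0.41, adjusted p = 0.144) did not pass the test.

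Elastic fibre genes were mixed, with 8 of 15 higher in the complex (53.3% against 27.9% of all genes), 4 lower (26.7% against 38.7%) and a median difference of 0.62. Eln, the elastin monomer, led them at 536, 543 and 524 against 24.1 and 25.5 FPKM in ear skin, a difference of 4.37 ± 0.052 (adjusted p = 2.43e-08). Every complex library lay above the highest of the 43 whole-skin libraries, which reached 54.99 FPKM. Genes for the assembly of elastin onto microfibrils went the same way, with Efemp2 at 92.2, 105 and 85.3 against 21.6 and 18.6 FPKM in ear skin and Ltbp4 at 198, 221 and 191 against 48.3 and 44.7 FPKM in ear skin. Emilin1, a glycoprotein at the elastin and microfibril interface, stood at 41.0, 48.5 and 35.4 against 12.8 and 7.49 FPKM in ear skin. The microfibril-associated Mfap2 went the other way, at 50.6, 61.4 and 47.0 FPKM in the complex and 206 and 184 FPKM in ear skin, and Mfap4, Mfap5 and the crosslinking enzyme Loxl2 were lower in the complex too. The lysyl oxidase Lox, at 23.5, 21.2 and 24.9 against 25.8 and 22.7 FPKM in ear skin, did not pass the test.

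The transcription factors of chondrocytes were higher in the complex in 14 of 17 cases, with a median difference of 2.08. Sox9, the master regulator of cartilage that hair follicle stem cells also use, stood at 142, 122 and 151 FPKM in the complex and 28.6 and 30.1 FPKM in ear skin, a difference of 2.19 ± 0.0949. The libraries labelled dorsal competent telogen held 101.5 and 99.05 FPKM of Sox9. The highest of the 43 whole-skin libraries reached 194 FPKM of Sox9, above every complex library. Sox5, its partner at cartilage enhancers, stood at 52.7, 60.4 and 43.0 against 1.1 and 0.85 FPKM in ear skin. Sox6, the other partner, stood at 36.0, 33.0 and 27.3 against 7.67 and 5.95 FPKM in ear skin. Scx, which specifies tendon and its attachments, stood at 17.2, 24.1 and 17 against 0.69 and 1.16 FPKM in ear skin, Prrx1 of connective tissue progenitors at 83.8, 89.7 and 93.1 against 16.1 and 16.4 FPKM in ear skin. Zbtb20 stood at 125, 129 and 119 against 18.5 and 17.7 FPKM in ear skin. Low-level factors of pharyngeal and craniofacial cartilage were present in the complex as well. Barx1 stood at 3.48, 5.24 and 4.09 against 0.06 and 0 FPKM in ear skin. Pax9 stood at 2.08, 3.24 and 2.33 against 0.06 and 0 FPKM in ear skin. The factors lower in the complex were Runx3 at 0.22, 0.24 and 0.19 against 4.69 and 5.42 FPKM in ear skin, Barx2 and Shox2. The osteoblast and chondrocyte factor Runx2 was higher at 2.23, 2.51 and 2.59 against 0.91 and 1.01 FPKM in ear skin.

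Genes of hypertrophic cartilage and bone were higher in the complex in 5 of 9 cases (55.6% against 27.9% of all genes). They were lower in 3 (33.3% against 38.7%), and the median was 0.61. Col10a1, the collagen of hypertrophic chondrocytes, stood at 40.6, 34.5 and 38.3 against 0.03 and 0.02 FPKM in ear skin. Ibsp, a sialoprotein of mineralizing matrix, stood at 30.9, 28.5 and 30.8 against 0.02 and 0 FPKM in ear skin. Spp1, osteopontin, stood at 60.4, 68.1 and 60.5 against 8.12 and 7 FPKM in ear skin. Markers of bone-forming cells were split, since Ibsp is among them and Runx2, given above, was higher in the complex too. The others named here were lower, did not pass or were not tested. Bglap, osteocalcin, stood at 0.65, 0 and 0 against 0.24 and 0.53 FPKM in ear skin and did not pass the test, and its near-identical neighbour Bglap2 was lower in the complex, a call lost in 8 of 14 alternatives. Panx3, a channel protein, was lower in the complex at 1.06, 1.37 and 0.9 against 31.4 and 31.8 FPKM in ear skin. Sp7, Dmp1, Sost, Ihh and Mepe were below the level needed for the test.

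Tendon and perichondrium genes were split, with 7 of 11 higher in the complex (63.6% against 27.9% of all genes). The other 4 were lower (36.4% against 38.7%), and the median of the 11 was 3.40. Thbs4, a thrombospondin of tendon and muscle attachments, stood at 106, 118 and 100.3 against 2.95 and 2.82 FPKM in ear skin. Angptl7, a secreted angiopoietin-like protein, stood at 407, 454 and 386 against 35.9 and 31.5 FPKM in ear skin. Mkx, a tendon homeobox factor, stood at 20.8, 32.2 and 21.2 against 1.19 and 1.49 FPKM in ear skin. Postn, periostin, was the opposite case, at 8.36, 9.27 and 9.86 FPKM in the complex and 304 and 327 FPKM in ear skin, a difference of -4.96 ± 0.0882. It was the member with the largest difference in favour of ear skin.

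Skeletal muscle genes of 4 lists were higher in the complex without exception among those tested. All 35 contractile genes, all 7 muscle myosin heavy chains, all 20 genes of excitation and contraction coupling and all 20 of muscle energy supply were called, with medians of 4.0, 3.29, 2.59 and 2.82. None of these genes was lower in the complex under any alternative, although Ldha lost its call when values were rescaled to TPM and without ear skin library 3. Acta1, skeletal alpha-actin, stood at 5208, 5979.8 and 4877 FPKM in the complex and 312 and 298 FPKM in ear skin, a difference of 4.12 ± 0.0916 (adjusted p = 2.64e-07). The libraries labelled dorsal competent telogen, whose skin overlies a muscle sheet, held 1341 and 1335 FPKM of Acta1, between the ear groups. Mylpf, the fast regulatory light chain, stood at 3827, 4329 and 3619.6 against 228 and 193 FPKM in ear skin. Ttn, the giant spring protein titin, stood at 357, 390.2 and 380.4 against 15.2 and 15.7 FPKM in ear skin. Chin refractory telogen skin held the highest of the 43 whole-skin libraries for each of these genes. It reached 5212 FPKM for Acta1, inside the range of the complex, and 2413 and 356.9 FPKM for Mylpf and Ttn, below it. Ckm and Tnnc2 reached 2769 and 5930 FPKM there, above every complex library, and Tnnt3 and Tnni2 2132 and 1607 FPKM, below every one. Reads can be shared among actins and among myosins, so the split between members of these families is uncertain.

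Both slow-fibre and fast-fibre genes were in the complex. For troponin T and troponin C the slow form differed from ear skin by more than the fast form, and for troponin I the forms differed alike. Myl2, the slow regulatory light chain, stood at 241, 249 and 230.0 against 1.35 and 1.31 FPKM in ear skin, a difference of 6.69 ± 0.0862, and was at 0 and 0.17 FPKM in the libraries labelled dorsal competent telogen. Tnnt1, slow troponin T, stood at 615, 653 and 647 against 6.13 and 6.11 FPKM in ear skin, a difference of 6.49 ± 0.0609, while fast troponin T, Tnnt3, differed by 3.88 ± 0.0579. The troponins Tnnc1 and Tnni1 of slow fibres differed by 5.28 and 5.26, and the fast forms Tnnc2 and Tnni2 by 3.84 and 5.25. Ear skin kept 145 and 159 FPKM of Tnnt3 and 6.13 and 6.11 FPKM of Tnnt1. Tcap, which caps titin at the Z-disc, stood at 4736, 5505 and 4543 against 116 and 99.7 FPKM in ear skin.

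The myosin heavy chains set the speed of a fibre, and their order in the complex was Myh1, Myh2 and Myh4, then Myh3, Myh7 and Myh8. Myh1 of fast IIX fibres stood at 375, 418 and 369 against 11.4 and 11.1 FPKM in ear skin. Myh2 of fast IIA fibres stood at 139, 157 and 141 against 0.44 and 0.53 FPKM in ear skin. Myh4 of the fastest IIB fibres stood at 126, 141 and 124 against 18.7 and 18.6 FPKM in ear skin. The ranges of Myh2 and Myh4 in the complex overlapped, so their order is not beyond the spread. Myh3, the embryonic heavy chain that adult limb muscle has largely shed, stood at 58.8, 68.5 and 56.5 FPKM in the complex, 0.12 and 0.04 FPKM in ear skin and 0.01 and 0.01 FPKM in the libraries labelled dorsal competent telogen. The difference from ear skin was 5.84 ± 0.103 (adjusted p = 1.11e-07), and no whole-skin library of the 43 exceeded 0.07 FPKM. Myh8, the perinatal chain, stood at 7.06, 8.66 and 6.57 against 0.17 and 0.25 FPKM in ear skin. The slow chain Myh7 stood at 9.38, 10.6 and 9.05 against 0.11 and 0.07 FPKM in ear skin. Myh6, Myh13 and Myh15 were too low to test. Myh4, by contrast, reached 240.3 FPKM in the highest of the 43 whole-skin libraries.

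Calcium handling and energy supply followed the contractile genes. Atp2a1, the fast-fibre calcium pump of the sarcoplasmic reticulum, stood at 2117, 2237 and 2079 against 122 and 97.2 FPKM in ear skin. Sln, the small protein sarcolipin that regulates this pump, stood at 859, 948 and 837 against 15.2 and 16.2 FPKM in ear skin. Trdn, triadin of the calcium release complex, stood at 72.1, 61.0 and 79.9 against 2.52 and 3.22 FPKM in ear skin. Mb, the oxygen store myoglobin, had the largest difference of the energy genes at 2946, 3326 and 2846 against 37.8 and 30.9 FPKM in ear skin, which is 6.43 ± 0.106 on the log2 scale. Ckm, muscle creatine kinase, differed less at 1055, 1310.2 and 1016 against 147 and 134 FPKM in ear skin (2.99 ± 0.118). The muscle isoform Cox6a2 of cytochrome oxidase, the fatty acid carrier Fabp3 and mitochondrial creatine kinase Ckmt2 differed by 4.43, 4.42 and 3.87. The smallest difference in this group was 0.38 for Ldha, a lactate dehydrogenase subunit that skin uses too.

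Of the myogenic factors 11 of 16 were higher in the complex, 2 were lower, and the median was 1.08. Mef2c, which drives muscle and also chondrocyte hypertrophy, stood at 234, 222 and 264 against 14.6 and 15.2 FPKM in ear skin. Myf6 of mature fibres stood at 17.5, 15.3 and 20.7 against 0.94 and 1.56 FPKM in ear skin. Myog, which switches myoblasts to differentiation, stood at 6.32, 5.86 and 5.54 against 0.34 and 0.37 FPKM in ear skin. Markers of satellite cells, the muscle stem cells, were low. Pax7 stood at 0.28, 0.35 and 0.22 FPKM in the complex and was not tested. Myf5 stood at 0.35, 0.23 and 0.7 against 0.21 and 0.23 FPKM in ear skin and did not pass. Pax3, which melanocytes also use, was lower in the complex, as was Mef2a. The neuromuscular junction was represented, with 10 of 11 genes higher. The receptor subunit Chrne of adult synapses stood at 13.8, 18.4 and 12.9 against 0.8 and 1.09 FPKM in ear skin, the agrin receptor kinase Musk at 5.82, 7.86 and 5.87 against 0.42 and 0.56 FPKM in ear skin, and its activator Dok7 at 6.26, 6.58 and 5.96 against 0.44 and 0.38 FPKM in ear skin. The exception was Lrp4, an agrin receptor that also acts in epithelial WNT and BMP signalling, at 2.74, 2.74 and 2.95 FPKM in the complex and 42.3 and 49.0 FPKM in ear skin.

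To show the start regions of genes that carried these differences, the 250 bases before the RefSeq start (GRCm38.p6) are given for the muscle genes Acta1 (chr8:123894776-123895025, minus strand) and Myh3 (chr11:67078050-67078299, plus strand), for Cytl1 (chr5:37735269-37735518, plus strand) and for the ear skin keratin Krt2 (chr15:101818170-101818419, minus strand). They run 5′ to 3′ on the strand of the gene, and capitals mark an E-box CAGCTG, a CArG box or a TATAA in the last 50 bases.
Acta1: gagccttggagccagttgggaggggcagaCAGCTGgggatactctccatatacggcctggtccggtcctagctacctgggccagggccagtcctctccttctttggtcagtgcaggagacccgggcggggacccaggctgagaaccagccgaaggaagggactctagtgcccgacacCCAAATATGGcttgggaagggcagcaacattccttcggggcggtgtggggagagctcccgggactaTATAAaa
Myh3: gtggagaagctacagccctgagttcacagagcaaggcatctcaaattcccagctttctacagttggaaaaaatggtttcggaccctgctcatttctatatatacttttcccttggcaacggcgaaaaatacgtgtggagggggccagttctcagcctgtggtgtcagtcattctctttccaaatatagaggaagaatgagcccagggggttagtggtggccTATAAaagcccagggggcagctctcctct
Cytl1: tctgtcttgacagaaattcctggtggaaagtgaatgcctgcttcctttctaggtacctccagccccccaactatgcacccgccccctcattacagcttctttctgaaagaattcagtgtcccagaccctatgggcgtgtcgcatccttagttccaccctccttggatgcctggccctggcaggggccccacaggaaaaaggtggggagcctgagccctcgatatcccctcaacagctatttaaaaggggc
Krt2: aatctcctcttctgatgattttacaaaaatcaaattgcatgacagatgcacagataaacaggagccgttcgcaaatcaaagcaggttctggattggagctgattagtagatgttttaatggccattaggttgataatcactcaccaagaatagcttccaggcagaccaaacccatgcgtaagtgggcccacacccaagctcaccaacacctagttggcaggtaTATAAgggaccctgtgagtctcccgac

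E-boxes are bound by myogenic and other helix-loop-helix factors, and the CArG box by serum response factor. The Acta1 window held 1 E-box, 1 CArG box and 1 TATAA, the Myh3 and Krt2 windows 1 TATAA each, and the Cytl1 window none of these motifs. CAGCTG and the CArG box read alike on both strands, TATAA was sought on the strand of the gene only, and a TATAA inside a CArG box would count for both. Of the 35 contractile genes 25 had a RefSeq promoter in the table used, and of these 12 (48.0%) held CAGCTG, 5 (20%) a CArG box and 5 (20%) TATAA. Over 25714 autosomal genes with a promoter the shares were 14.8%, 1.56% and 5.99%. Of 19 cartilage matrix genes with a promoter 4 (21.1%) held CAGCTG and 2 (10.5%) TATAA, and of 15 epidermal genes 5 (33.3%) held each of them. A match of letters is a description and not a binding site.

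Ear skin was set apart by its epidermis. Of 30 epidermal keratinocyte genes 29 were higher in ear skin, beside 38.7% of all genes tested, with a median log2 difference of -5.67. Krt2, a keratin of the upper epidermal layers of mouse ear, tail and sole skin, stood at 6849 and 6436 FPKM in ear skin and 0, 0.06 and 0.08 FPKM in the complex, a difference of -12.63 ± 0.0871 (adjusted p = 4.83e-09). The libraries labelled dorsal competent telogen held 0.3 and 0.51 FPKM, and no whole-skin library of the 43 exceeded 8.71 FPKM. Krt14 of the basal layer stood at 4933 and 4421 against 0, 0.8 and 0 FPKM in the complex. Its partner keratin Krt5 stood at 1656 and 1537 against 0.08, 0.07 and 0.05 FPKM in the complex. Both were at or near 0 in every complex library. Krt10 of the suprabasal layers stood at 2296 and 2375 against 3.08, 2.07 and 3.05 FPKM in the complex. Among the 15 largest differences in favour of ear skin, Krtdap, Ly6d, Calm4, Mt4, Lce1l, Lce1c and Lce1m were listed at 0 in all complex libraries. Krtdap, a small secreted protein of differentiating keratinocytes, stood at 7875 and 6861 FPKM in ear skin. Calm4, a skin calmodulin, stood at 6146 and 5745 FPKM. Lor, loricrin of the cornified envelope, stood at 2739 and 2153 against 0.26, 0.28 and 0.06 FPKM in the complex. Reads may be shared within the late cornified envelope cluster, so the split among its members is uncertain. In the epidermal list 6 genes were listed at 0 throughout the complex, and they enter the median through the pseudocount of 1 FPKM. The exception was Lamb3, a laminin chain of the basement membrane, which was marginally higher in the complex at 28.8, 34.9 and 28.1 against 26.2 and 21.9 FPKM in ear skin (0.34 ± 0.122, adjusted p = 0.0498). That call was lost in 8 of 15 alternatives.

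Hair follicle and sebaceous gland genes mostly followed the epidermis, with exceptions. Of 23 follicle genes 16 were higher in ear skin and 2 higher in the complex, with a median of -2.42. Krt15, a keratin of the follicle bulge, stood at 2628 and 2777 FPKM in ear skin and 0.05, 0.91 and 0.19 FPKM in the complex. Krt79 of the upper follicle stood at 467 and 422 against 0.39, 0.84 and 0.3 FPKM in the complex. Gata3 of the inner root sheath lineage stood at 161 and 176 against 0, 0.29 and 0.16 FPKM in the complex. These genes were near 0 in the complex. Other genes of follicle stem cells were present in both tissues, with Nfatc1 at 14.3, 14.97 and 14.1 against 14.0 and 13.5 FPKM in ear skin (adjusted p = 0.467) and Lgr6 at 5.10, 5.24 and 5.36 against 5.34 and 4.53 FPKM in ear skin (adjusted p = 0.49). Their differences of 0.06 ± 0.073 and 0.07 ± 0.0881 do not show that the tissues are alike. The follicle marker Lhx2 did not pass either, at 1.38, 0.87 and 1.09 against 1.45 and 1.82 FPKM in ear skin (adjusted p = 0.0701). Sox9 and Edar were the follicle genes that were higher in the complex. Of 13 sebaceous genes 11 were higher in ear skin, with a median of -2.30. Elovl3, a fatty acid elongase of the gland, stood at 651 and 669 against 0.63, 0.11 and 0.36 FPKM in the complex. Elovl4, another elongase, stood at 748 and 783 against 1.88, 1.13 and 1.59 FPKM in the complex. Far2, which makes wax alcohols, stood at 169 and 175 against 0.95, 0.92 and 1.47 FPKM in the complex. Mogat1, a monoacylglycerol acyltransferase, went the other way at 20.9, 24.1 and 15.2 FPKM in the complex and 0.15 and 0.1 FPKM in ear skin, and so did the lipid regulator Pparg.

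Dermal genes were mostly higher in ear skin. Of 22 fibroblast genes 16 were higher in ear skin and 5 higher in the complex, with a median of -0.98. Col1a1, the main collagen of dermis, stood at 3156 and 3511 FPKM in ear skin and 126, 143 and 123 FPKM in the complex, a difference of -4.66 ± 0.0847. Col3a1 stood at 2645 and 2654 against 141, 149 and 147 FPKM in the complex and Col1a2 at 2499 and 2421 against 260.0, 284 and 253 FPKM in the complex. Fibroblast surface markers were also higher in ear skin, with Thy1 at 36.8 and 38.2 against 7.05, 5.21 and 6.41 FPKM in the complex and Dpp4 at 6.92 and 5.75 against 0.02, 0.36 and 0.18 FPKM in the complex. In contrast the proteoglycan decorin, Dcn, stood at 3555, 3637 and 3629.7 FPKM in the complex and 1788 and 1834 FPKM in ear skin, a difference of 0.99 ± 0.0459. The mesenchymal receptors Pdgfra and Pdgfrb were higher in the complex by 0.61 and 1.14.

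Fat genes leaned towards the complex, with 14 of 20 higher there, 4 lower and a median of 0.85. The fat-specific hormone Adipoq stood at 169.9, 179 and 162 against 108 and 101 FPKM in ear skin. The fatty acid carrier Fabp4 stood at 1132, 1112 and 1239 against 364 and 374 FPKM in ear skin. The lipid droplet coat protein Plin1 stood at 43.7, 56.4 and 41.3 against 16.7 and 13.6 FPKM in ear skin. The highest of the 43 whole-skin libraries exceeded every complex library for Adipoq (509.6 FPKM) and Fabp4 (2591 FPKM), but not for Plin1 (27.2 FPKM). G0s2, an inhibitor of triglyceride breakdown, was far higher in the complex at 1099, 1281 and 1084 against 63.0 and 54.6 FPKM in ear skin (4.27 ± 0.106), and no whole-skin library exceeded 73.0 FPKM. Pnpla2, the lipase that G0s2 inhibits, stood at 131, 152 and 126 against 44.4 and 37.5 FPKM in ear skin. Cfd, adipsin, stood at 976, 1136 and 929.8 against 307 and 249 FPKM in ear skin. Those lower in the complex included Cidea, at 70.5, 78.8 and 69.4 against 382 and 346 FPKM in ear skin, which sebocytes also make, and Tusc5. Of 14 genes of the dermal papilla, the signalling mesenchyme of the follicle, 7 were higher in the complex and 4 lower, with a median of 0.28 that became -0.02 without the filter on low values. Corin, a protease used to mark the papilla that heart muscle also makes, stood at 77.0, 74.4 and 76.7 against 0.12 and 0.21 FPKM in ear skin. Crym was higher in ear skin at 5.26 and 4.62 against 0.03, 0 and 0.08 FPKM in the complex, and reached 1439.7 and 1437 FPKM in the libraries labelled dorsal competent telogen. Prdm1 was higher in ear skin at 5.21 and 4.79 against 0.18, 0.17 and 0.07 FPKM in the complex.

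Genes of immune and pigment cells were higher in ear skin. All 24 macrophage and dendritic cell genes were higher in ear skin, with a median of -2.07. H2-Ab1, a class II antigen-presenting chain, stood at 817 and 782 FPKM in ear skin and 58.5, 64.4 and 58.6 FPKM in the complex. Cd207, langerin of epidermal Langerhans cells, stood at 17.6 and 14.5 against 0.19, 0 and 0.07 FPKM in the complex. The receptor Csf1r of macrophages stood at 37.2 and 31.8 against 7.88, 8.82 and 7.10 FPKM in the complex. Of 12 T cell genes 11 were higher in ear skin, led by the receptor chain Cd3g at 25.7 and 28.4 against 0.5, 0.36 and 0.11 FPKM in the complex. Of 12 mast cell genes 11 were higher in ear skin, with a median of -2.49. Cma1, mast cell chymase, stood at 212 and 193 against 2.89, 3.38 and 3.12 FPKM in the complex. Cpa3, the mast cell carboxypeptidase, stood at 74.6 and 82.0 against 1.46, 1.05 and 1.13 FPKM in the complex. The tryptases Tpsb2 and Tpsab1 are related genes that may share reads, which was not tested. Of 11 melanocyte genes 10 were higher in ear skin, and Dct, Tyrp1 and Mlana were listed at 0 in all complex libraries. The marker Tyr was present there, at 2.16, 1.54 and 2.12 against 4.18 and 4.93 FPKM in ear skin. The melanocyte list summed to 10.4 to 12.9 FPKM in the complex and 183.6 and 197.1 FPKM in ear skin. In ear skin Dct, an enzyme of melanin synthesis, stood at 36.9 and 35.9 FPKM and Mlana, of the pigment granule, at 49.4 and 50.2 FPKM.

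Vessels and nerves differed less uniformly. Of 16 endothelial genes 8 were higher in ear skin (50% against 38.7% of all genes), 1 higher in the complex and 7 did not pass, with a median of -0.29. The endothelial junction gene Pecam1, at 18.2, 14.9 and 24.2 against 14.4 and 14.7 FPKM in ear skin, did not pass. Cdh5, an endothelial cadherin, did not pass either at 3.42, 3.19 and 3.49 against 2.80 and 2.69 FPKM in ear skin. The lymphatic receptor Flt4 was higher in ear skin at 3.62 and 4.43 against 1.06, 0.8 and 1.21 FPKM in the complex, and so was the lymphatic factor Prox1, with a difference of -0.75. Of 7 genes of red cells 5 were higher in ear skin, with a median of -0.67, and the alpha globins share reads. Of 15 smooth muscle and pericyte genes 11 were higher in the complex, with a median of 0.63. Those with the largest differences were Des, desmin, at 279, 326 and 268 against 11.8 and 11.01 FPKM in ear skin, which skeletal muscle makes as well. Cspg4 stood at 41.5, 46.8 and 40.4 against 4.47 and 4.22 FPKM in ear skin. The smooth muscle myosin Myh11 differed by 0.25 ± 0.0905, a call lost in 11 of 14 alternatives. Of 13 Schwann cell and nerve genes 8 were higher in ear skin, with a median of -1.22. S100b, a calcium-binding protein of Schwann cells and also of chondrocytes, went the other way at 363, 353 and 360.4 FPKM in the complex and 7.97 and 8.16 FPKM in ear skin, a difference of 5.31 ± 0.0614.

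**Figure D3:**
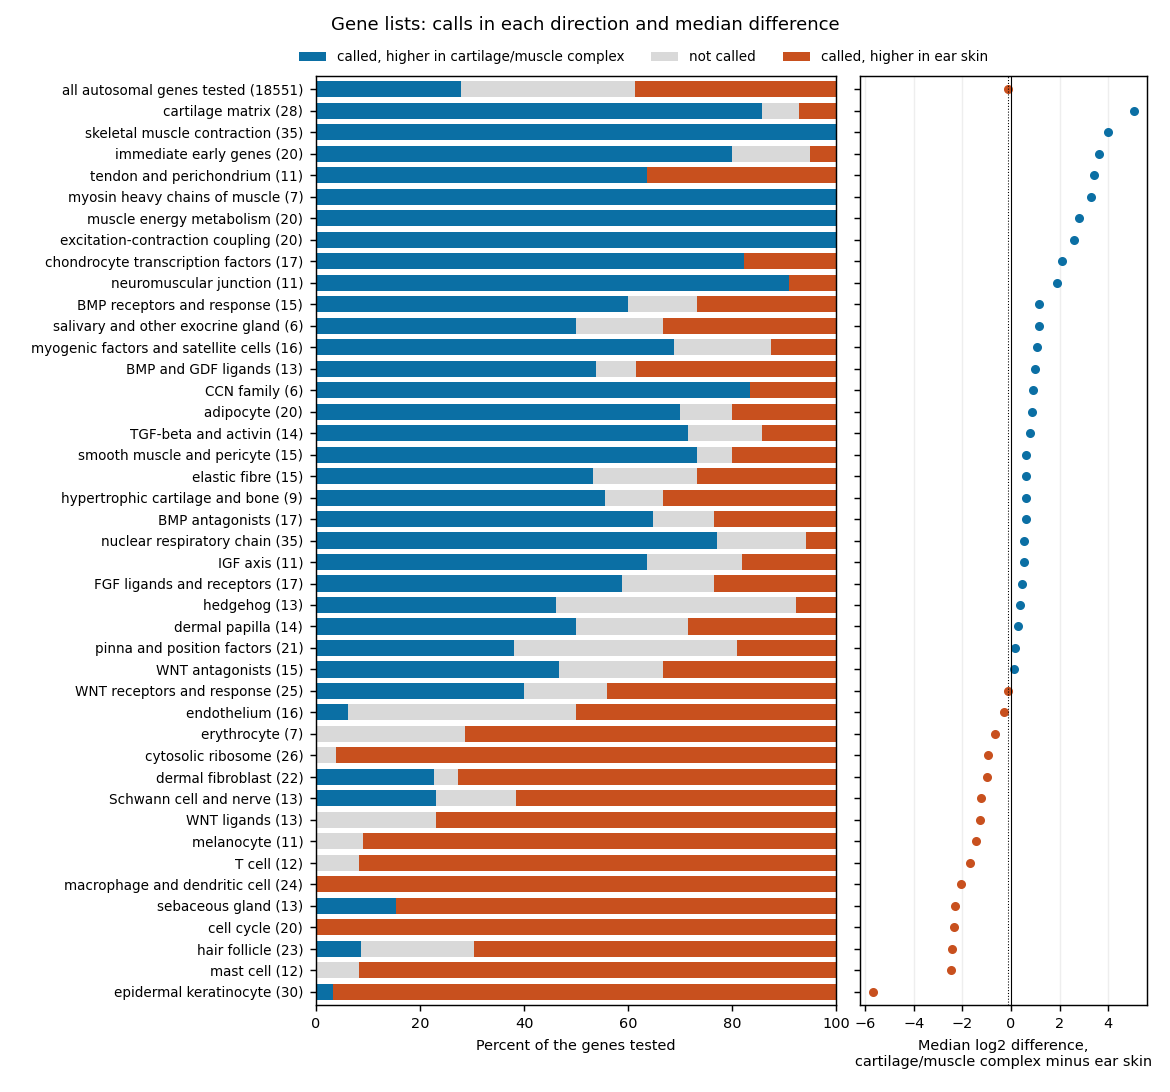
For each gene list the left panel gives the percent of its tested genes called in each direction (number tested in brackets), and the right panel the median log2 difference of the complex minus ear skin, with the dotted line at the median of all autosomal genes tested. Lists run from cartilage matrix at 5.05 to epidermal keratinocytes at -5.67, beside -0.11 for the 18551 genes.

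Among BMP ligands Bmp5, Gdf5 and Bmp2 were higher in the complex, and Bmp7 and Bmp4 higher in ear skin. Of 13 BMP and GDF ligands tested 7 were higher in the complex (53.8% against 27.9% of all genes) and 5 higher in ear skin, with a median difference of 0.99. Bmp5, whose loss gives mice with short ears, stood at 52.6, 44.9 and 54.8 FPKM in the complex, 0.63 and 0.61 FPKM in ear skin and 0 and 0.02 FPKM in the libraries labelled dorsal competent telogen. All complex libraries lay far above all others, with a difference from ear skin of 4.99 ± 0.101 (adjusted p = 1.87e-07), and the highest of the 43 whole-skin libraries held 0.77 FPKM. Gdf5, a ligand of joints and tendons, stood at 74.3, 85.1 and 69.9 against 0.43 and 0.46 FPKM in ear skin (5.74 ± 0.0978), and was listed at 0 in the libraries labelled dorsal competent telogen. Bmp2 was present in both ear tissues, at 14.99, 14.4 and 14.4 against 5.91 and 6.24 FPKM in ear skin (1.14 ± 0.0955). Gdf15, a stress-induced ligand, and Mstn, the muscle growth inhibitor myostatin, were higher in the complex too, by 2.35 and 1.25. Gdf6 and Bmp6 were higher in the complex by 1.62 and 0.99, all libraries being below 3 FPKM. Bmp7, a ligand of epithelium and mesenchyme, was higher in ear skin at 14.3 and 12.3 FPKM against 0.62, 0.58 and 0.77 FPKM in the complex (-3.11 ± 0.0959). Bmp4, the ligand of the dermal papilla, stood at 6.99, 7.06 and 8.55 FPKM in the complex, 11.2 and 11.3 FPKM in ear skin and 24.5 and 25.1 FPKM in the libraries labelled dorsal competent telogen. Bmp3, Gdf11 and Bmp8a were also higher in ear skin, all below 3 FPKM, and Bmp8a lost its call in 7 of 14 alternatives.

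BMP antagonists were no less present. Of 17 tested 11 were higher in the complex (64.7% against 27.9% of all genes) and 4 higher in ear skin (23.5% against 38.7%). The median was 0.60. The listed antagonists summed to 482.2 to 547.3 FPKM in the complex and 487.8 and 517.6 FPKM in ear skin, so the ranges overlapped. Nog, noggin, which binds BMP ligands outside the cell, stood at 23.5, 24.2 and 23.2 FPKM in the complex and 2.51 and 1.66 FPKM in ear skin (3.01 ± 0.124, adjusted p = 3.68e-06). Grem1, gremlin, stood at 8.63, 7.68 and 8.91 against 0.45 and 0.31 FPKM in ear skin. Bmper stood at 13.2, 14.5 and 13.1 against 2.28 and 2.09 FPKM in ear skin. Bambi, a decoy receptor, stood at 45.7, 54.97 and 45.3 against 2.32 and 1.74 FPKM in ear skin, but at 44.1 and 45.4 FPKM in the libraries labelled dorsal competent telogen, a level like that of the complex. Chrd, Chrdl2 and Dand5 were higher in the complex at levels between 2.97 and 8.74 FPKM. Sostdc1, an antagonist of both BMP and WNT signals made by follicle epithelium, was the largest exception at 71.3 and 81.5 FPKM in ear skin and 1.48, 1.41 and 1.77 FPKM in the complex (-4.92 ± 0.0912). Fst, Fstl1 and Fstl3, which bind activins, were higher in ear skin, with differences of -0.51, -0.71 and -2.76.

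Receptors and response genes of the BMP pathway were higher in the complex in 9 of 15 cases and lower in 4, with a median of 1.16. Id1, an immediate target of BMP signalling, stood at 884, 1045 and 903 against 132 and 116 FPKM in ear skin (2.92 ± 0.095). Id3, another such target, stood at 802, 915 and 790.1 against 130.3 and 122 FPKM in ear skin (2.72 ± 0.0826). The groups did not overlap for either. Smad6, an inhibitory Smad that the pathway induces, stood at 13.6, 15.97 and 11.9 against 1.05 and 0.97 FPKM in ear skin. Smad7, of the same kind, stood at 7.45, 7.5 and 7.29 against 2.02 and 2.02 FPKM in ear skin. Id2 went the other way with a difference of -0.36. Among receptors Bmpr1a did not differ beyond its error, at 11, 9.15 and 10.2 against 10.1 and 10.02 FPKM in ear skin (adjusted p = 0.977, SE 0.0856), while Bmpr1b and Acvr1 were higher and Bmpr2 and Acvr2a lower in the complex. Smad1, which carries the signal, was higher in ear skin at 12.1 and 13.5 against 6.87, 6.23 and 7.41 FPKM in the complex. Immediate early genes, which many stimuli induce, were also higher in the complex in 16 of 20 cases, and their summed level was 12850 to 14483 FPKM in the complex and 638 and 703 FPKM in ear skin. Their part in the Id values was not tested.

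WNT ligands were mostly higher in ear skin. Of 13 tested none was higher in the complex and 10 were higher in ear skin (76.9% against 38.7% of all genes), with a median of -1.29. After median-of-ratios scaling 1 was higher in the complex, and after quantile normalization 2 were, with 9 higher in ear skin. Wnt7b stood at 33.4 and 27.9 FPKM in ear skin and 0, 0 and 0.03 FPKM in the complex, Wnt10a at 29.9 and 22.2 against 0.07, 0.35 and 0 FPKM in the complex. Wnt3 stood at 19.02 and 17.6 FPKM and was listed at 0 in the complex. These are ligands of the epidermis and follicle that act through beta-catenin. Wnt4 stood at 17.2 and 18.4 against 1.95, 1.51 and 1.53 FPKM in the complex. Wnt5a, a non-canonical ligand, stood at 5.97 and 6.16 against 1.67, 2.29 and 1.76 FPKM in the complex. Wnt2, Wnt3a, Wnt6, Wnt10b and Wnt16 were higher in ear skin at levels below 5 FPKM, and Wnt10b lost its call in 6 of 14 alternatives. Wnt5b, Wnt9a and Wnt11 did not pass, with differences of 0.24 ± 0.104, 0.34 ± 0.165 and -0.23 ± 0.198.

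WNT antagonists divided between the tissues, with a median of 0.11. Of 15 tested 7 were higher in the complex (46.7% against 27.9% of all genes) and 5 higher in ear skin (33.3% against 38.7%). Wif1, a secreted protein that binds WNT ligands directly, was the highest of them at 2085, 2065 and 2102 FPKM in the complex. It stood at 18.9 and 20.8 FPKM in ear skin and 11.1 and 10.1 FPKM in the libraries labelled dorsal competent telogen, so the complex was higher than ear skin by 6.64 ± 0.0647 (adjusted p = 1.23e-08). The highest of the 43 whole-skin libraries reached 69.8 FPKM. Frzb, a secreted frizzled-related protein first found in cartilage, stood at 153, 165 and 149 against 0.95 and 1.22 FPKM in ear skin (6.23 ± 0.0862). Dkk3 stood at 163, 183 and 162 against 12.7 and 12.5 FPKM in ear skin. Notum, an enzyme that removes the lipid of WNT ligands, stood at 48.6, 65.1 and 48.6 against 2.71 and 2.45 FPKM in ear skin. Every complex library exceeded every ear skin library for these genes. Sfrp5 was higher in the complex at 32.3, 37.7 and 35.8 against 4.02 and 3.43 FPKM in ear skin, and Sfrp1 and Sfrp2 by smaller amounts of 0.60 and 0.53. Sfrp2 stood at 45.9, 47.4 and 45.2 FPKM in the complex, 31.5 and 31.7 FPKM in ear skin and 10.8 and 10.9 FPKM in the libraries labelled dorsal competent telogen.

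The antagonists that were higher in ear skin were led by Dkkl1, a dickkopf-like protein that the study counts as a WNT antagonist. It stood at 214 and 209 FPKM in ear skin and 31.6 and 33.4 FPKM in the libraries labelled dorsal competent telogen, and was listed at 0 in all complex libraries. Dkk2 stood at 13.9 and 13.6 FPKM in ear skin against 1.07, 1.03 and 1.12 FPKM in the complex (-2.83 ± 0.0729). Sostdc1, given above, Kremen2, the dickkopf co-receptor, and Apcdd1, a membrane inhibitor, were the others, with Kremen2 at 6.45 and 6.41 against 0.44, 0.18 and 0.15 FPKM in the complex. Sfrp4, Kremen1 and Cer1 did not pass.

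**Figure D4:**
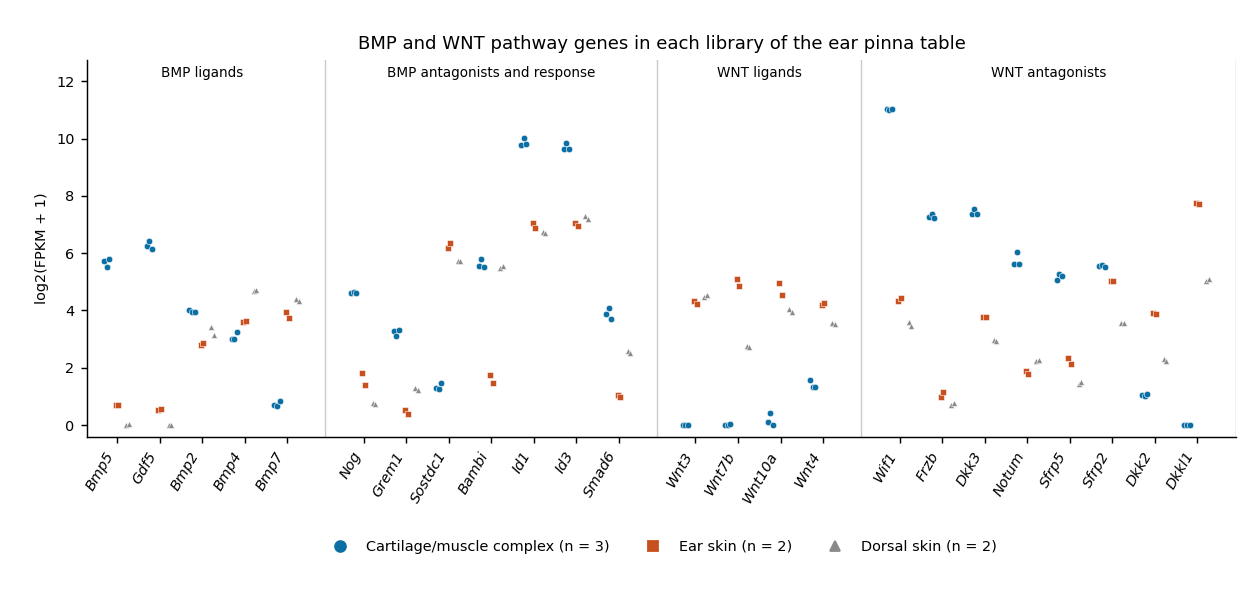
Levels of BMP and WNT pathway genes on a log2(FPKM + 1) axis, 1 point per library, for the complex (3 libraries, circles), ear skin (2 libraries, squares) and the libraries labelled dorsal competent telogen (2 libraries, triangles). Bmp5, Gdf5, Nog, Wif1, Frzb, Dkk3 and Notum are highest in the complex, and Bmp7, Sostdc1, the WNT ligands, Dkk2 and Dkkl1 are near 0 or low there.

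WNT receptors and response genes were divided as well, with 10 of 25 higher in the complex (40% against 27.9% of all genes), 11 higher in ear skin (44.0% against 38.7%) and a median of -0.11, which became 0.07 under quantile normalization and 0.2 with a minimum of 5 FPKM. Fzd9 was by far the most different receptor, at 351, 435 and 342 FPKM in the complex and 1.43 and 1.05 FPKM in ear skin (7.39 ± 0.130). Fzd8, Fzd1, Fzd2 and the co-receptor Lrp6 were higher in the complex by 1.59, 1.00, 1.05 and 1.13. Fzd6 was higher in ear skin at 9.13 and 8.86 against 1.59, 0.93 and 1.52 FPKM in the complex. Axin2, a feedback target of beta-catenin, was higher in ear skin at 7.90 and 6.47 against 2.89, 2.22 and 2.71 FPKM in the complex (-1.18 ± 0.123), and so was Znrf3, which removes WNT receptors, at 19.8 and 21.2 against 3.20, 2.93 and 3.44 FPKM in the complex. Nkd2 stood at 18.3 and 17.2 against 1.58, 1.78 and 1.42 FPKM in the complex. Rnf43 and Sp5 were at or near 0 in the complex. Lef1 was higher in the complex, at 6.41, 6.71 and 6.86 FPKM in the complex against 1.26 and 1.63 FPKM in ear skin. Among R-spondins, which enhance WNT signals, Rspo3 was higher in the complex by 0.67 and Rspo4 was listed at 0 there.

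Growth factors of the FGF family were higher in the complex in 10 of 17 cases (58.8% against 27.9% of all genes). They were lower in 4 (23.5% against 38.7%), and the median was 0.47. Fgf7, a ligand of epithelial receptors made by mesenchyme, stood at 30.3, 33.2 and 31.7 against 5.73 and 4.52 FPKM in ear skin (2.42 ± 0.0997). Fgf18, a cartilage ligand that also holds follicles in telogen, stood at 15.1, 13 and 14.4 FPKM in the complex, 2.94 and 3.67 FPKM in ear skin and 0.88 and 0.61 FPKM in the libraries labelled dorsal competent telogen, and differed between the ear tissues by 1.82 ± 0.122. Fgf2 stood at 13.7, 15.4 and 14.1 against 1.04 and 0.91 FPKM in ear skin. Fgf9 stood at 3.90, 3.22 and 4.16 against 0.54 and 0.6 FPKM in ear skin. Fgf22, an epidermal ligand, was higher in ear skin at 14.6 and 13.9 against 1.09, 0 and 1.90 FPKM in the complex. Of the receptors Fgfr3, which restrains chondrocyte growth, stood at 131, 126 and 121 against 30.3 and 23.4 FPKM in ear skin, Fgfr1 at 112, 133 and 113 against 39.0 and 32.8 FPKM in ear skin and the decoy Fgfrl1 at 47.6, 52.2 and 43.0 against 3.94 and 3.72 FPKM in ear skin. Fgfr2 was higher in ear skin by a small margin (-0.48), and the carrier Fgfbp1 stood at 133 and 138 FPKM in ear skin and was listed at 0 in the complex.

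Matricellular CCN proteins were higher in the complex in 5 of 6 cases, with a median of 0.91. Ctgf stood at 1017, 1209 and 1013 against 21.8 and 17.04 FPKM in ear skin (5.73 ± 0.125) and Cyr61 at 1419.8, 1565 and 1399 against 14.8 and 13.6 FPKM in ear skin (6.59 ± 0.0714). Complex library 2 was the highest of the 3 for both, and both are also known as immediate early genes. Wisp1, a WNT target, was higher in ear skin at 5.39 and 5.46 against 0.76, 0.96 and 0.68 FPKM in the complex. Of 14 TGF-beta and activin genes 10 were higher in the complex (71.4% against 27.9% of all genes). Another 2 were lower (14.3% against 38.7%), and the median of the 14 was 0.77. The ligand Tgfb3 stood at 70.2, 76.0 and 65.8 against 9.39 and 8.55 FPKM in ear skin and Tgfb2 was higher by 1.70, while Tgfb1 at 1.93, 1.85 and 2.31 against 1.88 and 1.92 FPKM in ear skin did not pass. Ltbp3, which stores latent TGF-beta in the matrix, stood at 45.5, 59.8 and 45.6 against 5.81 and 4.39 FPKM in ear skin. Tgfbi was higher in ear skin at 167 and 151 against 22.5, 28.4 and 20.7 FPKM in the complex.

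Of 13 hedgehog pathway genes tested, ligands, receptors and targets together, 6 were higher in the complex (46.2% against 27.9% of all genes). Of the rest 1 was lower (7.69% against 38.7%) and 6 did not pass, and the median of the 13 was 0.36. The ligand Shh stood at 0 FPKM in the complex and 0 and 0.05 FPKM in ear skin. Dhh stood at 2.85, 3.74 and 2.10 against 1.85 and 1.57 FPKM in ear skin, a call lost in 9 of 14 alternatives. The targets Gli1 (-0.05 ± 0.119) and Ptch1 (0.36 ± 0.147) did not pass. The co-receptor Boc, which also acts in myogenesis, stood at 61.8, 64.3 and 60.1 against 6.43 and 5.52 FPKM in ear skin. Cdon, its relative, stood at 11.3, 10.7 and 11.6 against 1.94 and 2.03 FPKM in ear skin, and the co-receptor Gas1 was higher in ear skin. In the IGF axis 7 of 11 genes were higher in the complex (63.6% against 27.9% of all genes). Another 2 were lower (18.2% against 38.7%), and the median of the 11 was 0.52. Igf2, an imprinted growth factor, stood at 90.7, 92.1 and 82.0 against 15.3 and 12.2 FPKM in ear skin (2.61 ± 0.152). Igf1 stood at 54.8, 54.2 and 58.5 against 41.6 and 39.6 FPKM in ear skin. The binding proteins were split, with Igfbp5 at 136, 137 and 142 against 32.2 and 34.2 FPKM in ear skin and Igfbp3 at 5.37, 5.66 and 5.42 FPKM in the complex against 106 and 94.6 FPKM in ear skin (-3.97 ± 0.085).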

How the data were processed

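RNA-seq libraries of C57BL/6 mouse tissue were made by SMART-seq2, which does not keep strand, from RNA of high integrity and sequenced paired-end on a NextSeq500. Per the labels and the study's methods, the authors aligned reads to mm10 with GENCODE vM8, quantified genes with RSEM 1.2.25 and deposited FPKM. The methods mention correction for batch effects, without naming batches, and whether the deposited FPKM are corrected is not given in the sources used here. RSEM divides reads among near-identical genes, and antisense partners share reads.

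The ear table was tested with limma 3.58.1 and statmod 1.5.0 (R 4.3.3) on log2(FPKM + 1), a pseudocount of 1 FPKM, with the variance allowed to follow the mean level. Its 3 groups (complex, ear skin, dorsal skin) entered 1 fit over the 19299 genes at 0.5 FPKM or more in at least 2 libraries. p-values are two-sided, adjusted by Benjamini-Hochberg over those genes, and called at 0.05. The 18551 autosomal genes, placed by a later GENCODE annotation of the same build, are reported. The numbers of the ear skin columns (2 and 3) differ from those in the labels, so they served as group columns only. Both dorsal columns are identical to columns of the table of 43 whole-skin libraries, whose values were set beside the ear without a test. Among those 43, ventral catagen replicate 1 is ventral by its title and source but ear rostral by its location label, and none of the highest values quoted came from ventral catagen skin.

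Depth was estimated from the steps that whole fragments leave in the FPKM of 26543 genes with a single transcript, and replicates differed by more than sampling noise, with a chi-square of 3.0 to 11.4 per gene. No library listed any of 12 housekeeping genes at 0. The fit and the depth estimate were tested on simulated data. Promoters came from RefSeq (GRCm38.p6). Scripts ran under Python 3.11.15 with matplotlib 3.10.9, scipy 1.17.1, pandas 2.3.3 and numpy 2.4.6.

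Members and gene lists were chosen with earlier results of these data known, and the list symbol for Snorc was corrected to 3110079O15Rik after values were seen. Genes were named by rule: the 15 largest called, non-overlapping autosomal differences in each direction with a mean of at least 5 FPKM in the higher group (predicted and Rik models left out), up to 5 called members of each list with its defining members, all called members of the BMP, WNT, FGF, CCN, TGF-beta, hedgehog and IGF lists, and genes the study examines in ear tissues. Other genes were chosen after their values were seen. Alternatives were a pseudocount of 0.1, no filter, a minimum of 5 FPKM, TPM, median-of-ratios, quantile and autosomal scaling, a variance free of trend, a replicate block, the 5 ear libraries alone, a 2-fold minimum and leaving out each library. A few named results are not reported here.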

Additional observations from a re-analysis of the deposited data

How the results depend on the processing

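Most named genes kept their direction and their side of the threshold: over 373 genes and up to 15 alternatives each, 5354 values did so, 33 passed the threshold only under the alternative, 101 no longer passed and 24 changed sign. The total of called genes (12358) stayed within 1.5 times its value in every alternative except the 2-fold minimum, which left 5571 genes, 2141 higher in the complex and 3430 higher in ear skin. A minimum of 5 FPKM left 3349 genes higher in the complex, since fewer genes were tested. The share of calls higher in the complex (41.8%) was 40.7% without the filter on low values, 38.6% with a minimum of 5 FPKM, 31.3% after rescaling to TPM, 45.8% after median-of-ratios scaling, 54.1% after quantile normalization and 38.4% with a 2-fold minimum. Scaling to the autosomal total, chosen after seeing the data, gave 39.8%. These scalings moved the median difference of all genes from -0.11 to -0.31 with TPM, -0.04 with median of ratios and 0.08 with quantile normalization, and the cause was not tested.

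Leaving out 1 library in turn gave 9933 to 12614 called genes, 4141 to 5303 higher in the complex, 5649 to 7311 higher in ear skin and a share of 41.4% to 43.1%. Without 1 of the ear skin libraries, the remaining one was assumed to vary like the other groups. With the 5 ear libraries alone 17972 autosomal genes were tested and 11798 called. Of these calls 4949 were higher in the complex and 6849 higher in ear skin (41.9%). With the replicate number as a block 11597 genes were called, 4829 of them higher in the complex and 6768 higher in ear skin (41.6%). The numbers were not taken to pair the libraries, because deviations correlated at 0.112 over 1 pair of differences and 0.026 over the other and no label ties a number to an animal or day.

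Among the 373 genes followed, 23 that passed the main test lost their call in at least 1 alternative. The most affected were Myh11 (11 of 14 alternatives, 0.21 to 0.28 with a library left out), Ltbp2 (10 of 14, 0.29 to 0.53), Dhh (9 of 14, 0.35 to 0.66), Bglap2 (8 of 14, -2.03 to -1.31), Nkd1 (8 of 14, -0.51 to -0.32), Lamb3 (8 of 15, 0.21 to 0.46), Bmp8a (7 of 14, -0.41 to -0.21), Sufu (7 of 14, 0.22 to 0.52), Wnt10b (6 of 14, -0.64 to -0.45) and Fgf14 (5 of 14, 0.32 to 0.38). The others, each losing it in 1 to 3 alternatives, were Chst3, Fzd7, Acvr2a, Fgf11, Igfbp4, Ldha, Vwc2, Fgf5, Fgfr2, Hbb-bs, Id2, Mef2a and Twsg1. Calls lost with 1 library left out numbered 14 without ear skin library 2, 14 without ear skin library 3 and 8, 5 and 8 without complex libraries 1, 2 and 3. The replicate block ended the calls of Bglap2, Bmp8a, Vwc2, Wnt10b, Fzd7, Ltbp2, Dhh and Myh11.

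The values that changed sign belonged to 9 genes that did not pass the test. With TPM Bmpr1a became -0.24, Lgr6 -0.15, Nfatc1 -0.18 and Tgfb1 -0.12. With median of ratios Fosl2 became 0.042, Gli1 0.0012, Lox 0.026 and Myc 0.0052, and with quantile normalization Fosl2 became 0.17, Gli1 0.12, Lox 0.20, Myc 0.18 and Shh 0.0088. With the replicate block Bmpr1a became -0.018 and Gli1 0.00074, and scaled to the autosomal total Bmpr1a became -0.048. With a library left out they ranged from -0.054 to 0.067 for Bmpr1a, -0.13 to 0.039 for Gli1, -0.025 to 0.17 for Lgr6, -0.15 to 0.028 for Lox, -0.070 to 0 for Shh and -0.0051 to 0.10 for Tgfb1. Depth limits the genes with low values, of which 23729 on autosomes were not tested.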

Other observations

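Immediate early genes, transcription factors that cells induce within minutes of a stimulus, were higher in the complex in 16 of 20 cases, with a median log2 difference of 3.64. Fos stood at 3648, 4254 and 3665 FPKM in the complex and 23.3 and 23.0 FPKM in ear skin (7.32 ± 0.0787), Atf3 at 301, 345 and 306 against 2.28 and 2.11 FPKM in ear skin. Egr1 stood at 932, 966 and 948 against 23.4 and 23.5 FPKM in ear skin. The highest of the 43 whole-skin libraries reached 358 FPKM for Fos and 130.4 FPKM for Egr1. Myc at 31.8, 33.8 and 30.9 against 32.7 and 35.6 FPKM in ear skin did not pass, nor did Fosl2 or Hspa1b.

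All 20 cell cycle genes were higher in ear skin, with a median of -2.35. Cdk1 stood at 32.3 and 31.7 FPKM in ear skin and 0.27, 0.42 and 0.21 FPKM in the complex. Top2a stood at 16.6 and 18.0 against 0.24, 0.41 and 0.32 FPKM in the complex. Of 26 cytosolic ribosomal protein genes 25 were higher in ear skin, with a median of -0.94, led by Rpl3 at 1146 and 1116 against 239, 241 and 232 FPKM in the complex. Of 35 nuclear genes of the respiratory chain 27 were higher in the complex, with a median of 0.53, led by Atp5b at 1471, 1494 and 1433 against 550.2 and 518 FPKM in ear skin, while Ndufa4 was lower at 750.1, 746 and 756 against 1599.6 and 1526 FPKM in ear skin.

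Of 21 factors of pinna shape and body position 8 were higher in the complex (38.1% against 27.9% of all genes), 4 higher in ear skin (19% against 38.7%) and 9 did not pass, with a median of 0.17. Dlx5, a homeobox factor of the jaw and ear arches, stood at 95.2, 99.3 and 106 FPKM in the complex, 11.4 and 11.9 FPKM in ear skin and 1.39 and 1.82 FPKM in the libraries labelled dorsal competent telogen. Its neighbour Dlx6 stood at 18.1, 19.99 and 19.7 against 0.13 and 0.26 FPKM in ear skin. Hoxa2, which sets the identity of the arch that forms the pinna, stood at 6.25, 7.29 and 5.53 FPKM in the complex, 3.58 and 3.39 FPKM in ear skin and 0.53 and 0.41 FPKM in the libraries labelled dorsal competent telogen. The highest of the 43 whole-skin libraries, from chin competent telogen skin, reached 3.21 FPKM of Hoxa2, close to ear skin. Hoxc8, a factor of the trunk, stood at 0.04, 0 and 0.11 FPKM in the complex, 0 in ear skin and 4.98 and 5.32 FPKM in those dorsal libraries.

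Of 16 salivary and other exocrine gland genes 6 were tested, 3 being higher in the complex and 2 higher in ear skin. Bpifa2, a parotid secretory protein, stood at 15.9, 17.5 and 16.9 FPKM in the complex and was listed at 0 in ear skin. Amy1 stood at 23.3, 23.96 and 23.7 against 5.65 and 5.49 FPKM in ear skin. Of the gland markers Dcpp1 and Smgc were listed at 0 in every library of the table, and the whole list summed to 47.6 to 51.5 FPKM in the complex and 51.9 and 54.8 FPKM in ear skin.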
